A study of Mus spretus with 12 samples.

Results

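The transcripts of 9 enzymes of triglyceride synthesis were followed in the liver of aged Mus spretus. The genes are Acsl1, Acsl5, Gpam, Agpat2, Lpin1, Lpin2, Mogat1, Dgat1 and Dgat2, and they were taken as every non-control spot of the array files whose gene name equals one of these symbols. They held 25 probes, each printed as a single spot, among the 56605 probes of the array. A probe was tested when all 4 arrays of some group read it well above background, which 27098 probes of the array did. Among the 25 this held for 21, with at least 1 for each of the 9 genes, and these 21 passed on all 12 arrays.

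The mice were male SPRET/EiJ, a wild-derived inbred strain, aged 20 months at the start and 22 months at sampling, and 3 groups of 4 one-colour arrays were made from their livers after 60 days. PXDDE mice ate a Teklad rodent diet carrying corn oil and 450 mg of p,p'-DDE per kg of feed, and their drinking water contained Pedro Ximenez grape must that supplied 85 mg/L of polyphenols and 31 g/L of sugar, as glucose and fructose in equal parts. DDE mice ate the p,p'-DDE feed without must, and control mice ate the Teklad diet with corn oil alone. The series asks what p,p'-DDE, the long-lived breakdown product of DDT, changes in liver and what the must changes on top of it. No group analysed here received must, or an equal amount of sugar, without p,p'-DDE, so must polyphenols, sugar and their action on the p,p'-DDE response cannot be told apart. The labels do not say that each array is a separate animal, so p-values reflect the variation among these arrays, some of which may be technical. Fewer cells of a type and less RNA per cell cannot be told apart in these whole-tissue samples.

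Triglyceride is built in the endoplasmic reticulum of the hepatocyte by the glycerol phosphate pathway. A long-chain acyl-CoA synthetase (Acsl1, Acsl5) joins a fatty acid to coenzyme A, Gpam attaches the first fatty acid to glycerol 3-phosphate at the mitochondrial outer membrane, Agpat2 attaches the next, a lipin (Lpin1, Lpin2) removes the phosphate to give diacylglycerol, and Dgat1 or Dgat2 adds the last fatty acid. Mogat1 reaches diacylglycerol from monoacylglycerol and so bypasses the earlier steps. In liver the product is stored in droplets or leaves the cell in very low density lipoprotein, and SREBP-1c, which insulin and sugar raise, is a known activator of Gpam and other lipid synthesis genes.

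The arrays read these genes through 60-base probes, and a selection of them is given first, 5′ to 3′ as the array design lists them, in lower case throughout because no base is singled out. The first 6 read as protein-coding sequence and are printed whole: they are the probes of Dgat1 and Acsl5, which were higher in PXDDE than in DDE, a Mogat1 probe, which was higher in both p,p'-DDE groups than in control, and 3 lipin probes. Of these, Lpin2 A_55_P2729608 was not called in any comparison. The Dgat1, Acsl5 and first Lpin2 probes cover 147, 589 and 367 bases of genome with their 60 bases, so each matches sequence on both sides of a gap, as a probe across an exon junction does. Of the other 7, the first 30 bases are shown, because their place in the transcript (coding or untranslated) was not established here. They are the probes behind the Gpam rise, the Lpin1 fall, the Mogat1 rise and the Lpin2 changes in opposite directions.
Dgat1 A_52_P456134: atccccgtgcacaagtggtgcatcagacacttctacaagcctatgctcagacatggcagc
Acsl5 A_52_P593037: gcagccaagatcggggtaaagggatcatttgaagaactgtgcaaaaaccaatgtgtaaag
Mogat1 A_55_P2847527: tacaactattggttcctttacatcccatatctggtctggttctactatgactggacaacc
Lpin2 A_51_P370438: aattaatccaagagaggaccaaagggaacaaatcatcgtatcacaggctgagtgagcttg
Lpin2 A_55_P2729608: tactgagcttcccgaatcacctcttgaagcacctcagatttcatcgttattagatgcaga
Lpin1 A_55_P2883270: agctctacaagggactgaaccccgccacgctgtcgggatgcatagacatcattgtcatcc
Gpam A_51_P471819: attgtaaaaaagcactgtgtgactttgtga
Gpam A_52_P11388: gcagaaactcctagagtatattctgagttt
Lpin1 A_65_P10394: tatatgggtaccatacatttcaaagttgct
Mogat1 A_52_P64376: ggagcacgaaactctggtatttaaataacc
Lpin2 A_51_P256323: agtgccactaagcagctttaagttgtccgt
Lpin2 A_55_P2072872: ccaggcacacagccatatatcaggcaaaac
Lpin2 A_55_P2621779: acggtttgacttgaagttattcagccctgc

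All levels below are log2 of the processed spot signal relative to the 75th percentile of its array, so a difference of 1 is a 2-fold difference, and a level is compared only with the same probe on other arrays. A probe was called higher or lower when limma's adjusted p over the 27098 probes was under 0.05. The 75th percentile was 692 to 710 signal units on the PXDDE arrays, 551 to 662 on the DDE arrays and 492 to 570 on the control arrays, and 50.1% to 52.0% of the 59305 non-control spots of an array were well above background. The arrays lay on 5 slides, each scanned in its own pass, and a slide held 2 or 3 of the groups, so changes were also computed within slides. The hepatocyte markers fixed for this tissue were bright in every group (7 of 8 names are on the array), with a summed level of 11.65 to 11.78 on the PXDDE arrays, 11.49 to 11.88 on the DDE arrays and 11.95 to 12.09 on the control arrays. Markers of other tissues were present as well and differed between the groups. Coordinates are those of the array design on the mm9 build, and whether a probe lies in coding or untranslated sequence is stated only where its sequence was read as coding. Besides the main scaling, 5 others were run: quantile normalisation, normexp background correction, both together, centring on the median of each array, and the authors' deposited log2 values.

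Each gene was represented by the brightest of its tested probes. In DDE against control, 4 of the 9 genes were higher (Mogat1, Acsl1, Dgat1 and Lpin2), 1 was lower (Agpat2) and 4 were not called (Gpam, Lpin1, Dgat2 and Acsl5). Over all 18678 genes 49.2% were called, 23.4% higher and 25.8% lower. In PXDDE against DDE, 4 were higher (Gpam, Acsl5, Dgat1 and Dgat2), 2 were lower (Lpin1 and Acsl1) and 3 were not called (Agpat2, Lpin2 and Mogat1), against 48.5% called over all genes, 19.5% higher and 28.9% lower. In PXDDE against control, 6 were higher, 2 were lower (Lpin1 and Agpat2) and Acsl1 was not called, against 70.3% called over all genes, 31.2% higher and 39.1% lower. So many genes were called over the whole array that 5, 6 and 8 called genes of 9 do not set the pathway apart. Without any overlap between the arrays of the 2 groups were 5, 6 and 8 of the 9 genes in these comparisons, and 46.4%, 44.7% and 65.2% of all genes. The median change of the 9 genes was 0.11, 0.087 and 0.40, beside -0.024, -0.040 and -0.058 over all genes. The 3 comparisons share arrays, so a gene's values in them are not independent.

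**Figure D1:**
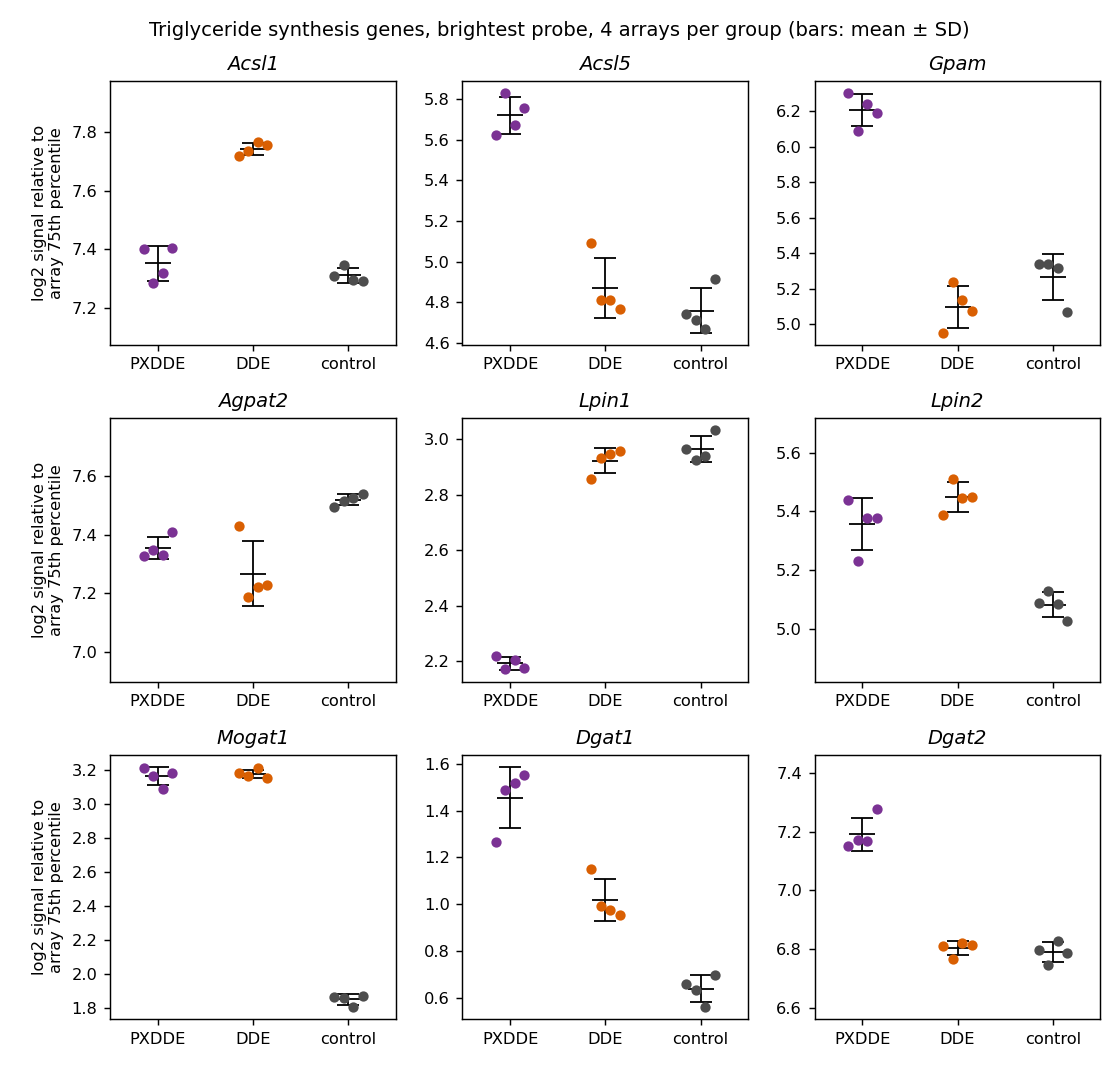
Level of the 9 genes by their brightest probe, as log2 signal relative to the array's 75th percentile, with 1 point for each of the 4 PXDDE, 4 DDE and 4 control arrays and bars for the mean ± SD. Mogat1 is higher in both p,p'-DDE groups than in control, Gpam and Acsl5 are higher in PXDDE alone, Lpin1 is lower in PXDDE alone, Acsl1 is higher in DDE alone, and Dgat1 differs between all 3 groups.

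**Figure D2:**
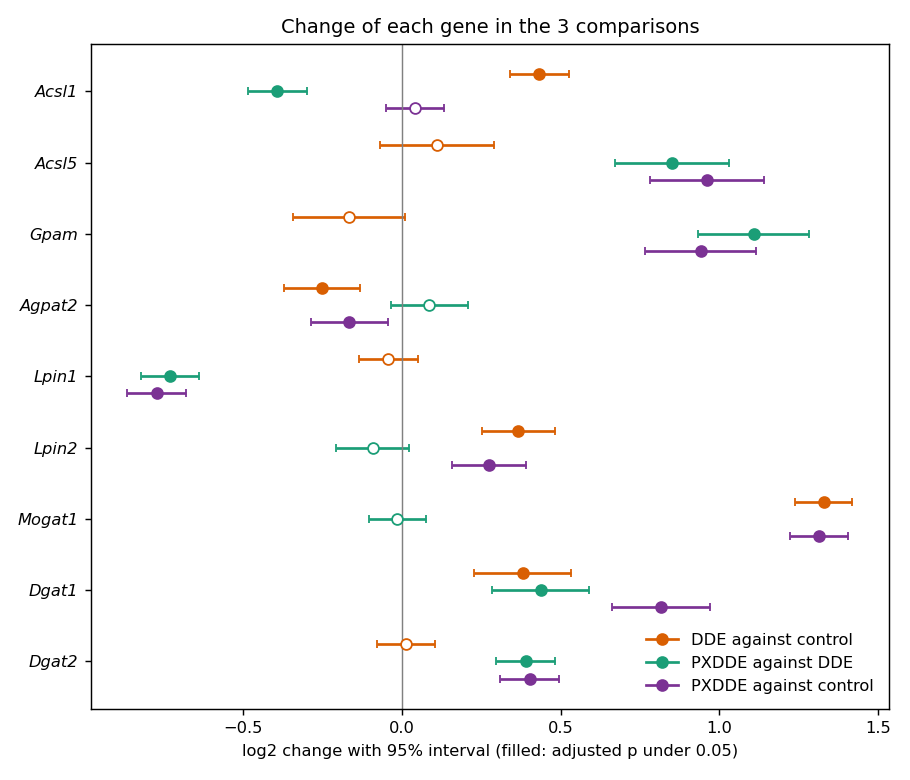
Change of each gene in the 3 comparisons, as the log2 difference of group means with its 95% interval, with filled points for an adjusted p under 0.05. The largest change in DDE against control is that of Mogat1 (1.33), and the largest in PXDDE against DDE is that of Gpam (1.11).

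The 2 synthetases of fatty acid activation had different patterns. Acsl1, the main acyl-CoA synthetase of liver, was higher in DDE than in control and lower in PXDDE than in DDE. Its brightest probe (chr8:47621232-47621291, plus strand) read 7.40, 7.28, 7.32 and 7.40 on the PXDDE arrays, 7.72, 7.74, 7.77 and 7.75 on the DDE arrays and 7.31, 7.35, 7.29 and 7.29 on the control arrays. All 4 DDE arrays were above every array of both other groups, which overlapped each other. The level was 1.35-fold higher in DDE than in control, a log2 change of 0.43 (SE 0.042, adjusted p = 1.08e-05), and 1.31-fold lower in PXDDE than in DDE, a change of -0.39 (SE 0.042, adjusted p = 2.3e-05). PXDDE against control gave 0.041 (95% interval -0.051 to 0.13, adjusted p = 0.401). That last value rests on the scaling: it was 0.42 to 0.49 and called (adjusted p 1.32e-06 to 1.59e-05) under quantile normalisation, background correction with quantile normalisation, median centring and the authors' deposited values, and 0.094 (adjusted p = 0.0457) as the mean of both tested probes. Over the 5 other scalings the change in DDE against control was 0.45 to 0.66 and that in PXDDE against DDE was -0.38 to -0.15. The summed level of 6 adrenal cortex markers, 5.36 to 5.52 in PXDDE, 0.16 to 0.26 in DDE and 4.59 to 4.70 in control, was lowest where Acsl1 was highest, and its part in the result was not tested. The other tested probe of Acsl1 (chr8:47620082-47620141, plus strand) moved the same way, by 0.56 (SE 0.047, adjusted p = 3.51e-06) in DDE against control and -0.41 (SE 0.047, adjusted p = 3.62e-05) in PXDDE against DDE, and was called in PXDDE against control at 0.15 (SE 0.047, adjusted p = 0.0152). Within slides the change of the brightest probe was 0.42 to 0.45 in DDE against control and -0.45 to -0.31 in PXDDE against DDE.

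Acsl5, an acyl-CoA synthetase of mitochondria and endoplasmic reticulum, was higher in PXDDE than in both other groups. The probe printed above (chr19:55368743-55369331, plus strand) read 5.62, 5.83, 5.67 and 5.76 on the PXDDE arrays, 5.09, 4.81, 4.81 and 4.77 on the DDE arrays and 4.74, 4.71, 4.67 and 4.92 on the control arrays. Every PXDDE array was above every other array, while the DDE and control arrays overlapped. Acsl5 was 1.8-fold higher in PXDDE than in DDE, a log2 change of 0.85 (SE 0.082, adjusted p = 1.06e-05), and 1.95-fold higher in PXDDE than in control, 0.96 (SE 0.082, adjusted p = 1.09e-06). DDE against control gave 0.11 (95% interval -0.070 to 0.29, adjusted p = 0.292), and of the settings run it was called under median centring alone (0.34, adjusted p = 0.00565). The rises were 0.67 to 0.86 and 0.91 to 0.96 within slides. A further tested probe, designed to a cDNA further downstream (chr19:55372112-55372171, plus strand), was dim and read -3.41, -3.30, -3.22 and -3.37 on the PXDDE arrays, -3.18, -3.20, -3.40 and -3.28 on the DDE arrays and -3.21, -2.80, -3.39 and -3.08 on the control arrays, with overlap between all groups and no call with the main scaling. Under normexp background correction it was called lower in PXDDE against DDE (-0.17, adjusted p = 0.0361) and PXDDE against control (-0.26, adjusted p = 0.00165). Without control replicate 3 it was called at -0.30 (adjusted p = 0.019) in PXDDE against control. Under the rest of the 5 other scalings both changes were above 0 and not called. Over all settings run, the mean of both tested probes among them, the rises of Acsl5 were 0.39 to 1.14 and 0.38 to 1.34.

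Gpam, the mitochondrial acyltransferase that commits fatty acids to glycerolipid, showed the largest change in PXDDE against DDE of the 9 genes. Its brightest probe (chr19:55142203-55142262, minus strand) read 6.30, 6.09, 6.24 and 6.19 on the PXDDE arrays, 4.95, 5.23, 5.13 and 5.08 on the DDE arrays and 5.34, 5.34, 5.32 and 5.07 on the control arrays. The PXDDE arrays lay apart from all others, and the DDE and control arrays overlapped through control replicate 4. PXDDE was 2.15-fold above DDE, a log2 change of 1.11 (SE 0.080, adjusted p = 1.11e-06), and 1.92-fold above control, 0.94 (SE 0.080, adjusted p = 1.06e-06). The second probe, 3.2 kb further upstream (chr19:55145403-55145462, minus strand), read 0.22, 0.39, 0.31 and 0.34 on the PXDDE arrays, -1.11, -1.24, -1.34 and -1.32 on the DDE arrays and -0.80, -0.79, -0.70 and -0.73 on the control arrays. Its 3 groups did not overlap: it was 2.96-fold higher in PXDDE than in DDE, 1.57 (SE 0.060, adjusted p = 4.79e-09), and 1.41-fold lower in DDE than in control, -0.50 (SE 0.060, adjusted p = 5.57e-05). The summed level of 9 pancreatic acinar markers was highest in PXDDE as well, at 11.14 to 11.17 on the PXDDE arrays, 8.91 to 9.09 on the DDE arrays and 9.33 to 9.43 on the control arrays, and its part in this rise and in those of Acsl5, Dgat1 and Dgat2 was not tested.

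Whether Gpam was called in DDE against control depended on the probe. At the brightest probe it was -0.17 (95% interval -0.34 to 0.0090, adjusted p = 0.109), and it was called without control replicate 4 (-0.23, adjusted p = 0.0231), with the slide as a block (-0.19, adjusted p = 0.0226) and as the mean of both probes (-0.33, adjusted p = 8.83e-05). Under median centring it turned to 0.064 (adjusted p = 0.532). The second probe stayed below 0 under each of the 5 other scalings, at -0.46 to -0.26. The rise in PXDDE against DDE was 1.07 to 1.24 at the brightest probe and 1.44 to 1.65 at the second within slides.

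Agpat2, the acyltransferase that makes phosphatidic acid in liver and fat, had small changes, and the direction of PXDDE against control rested on the scaling. Its brightest probe (chr2:26448610-26448669, minus strand) read 7.33, 7.35, 7.33 and 7.41 on the PXDDE arrays, 7.43, 7.19, 7.22 and 7.23 on the DDE arrays and 7.49, 7.51, 7.52 and 7.54 on the control arrays. The control arrays were above all others, and DDE replicate 1 stood above the other DDE arrays and every PXDDE array. The change was -0.25 (SE 0.055, adjusted p = 0.003) in DDE against control and -0.17 (SE 0.055, adjusted p = 0.0186) in PXDDE against control, and the second was not called as the mean of both probes (-0.050, adjusted p = 0.468). Under quantile normalisation, background correction with quantile normalisation, median centring and the authors' deposited values, PXDDE against control turned to 0.21 to 0.23 and was called higher (adjusted p 0.000855 to 0.0121). The fall in DDE against control was no longer called under median centring (-0.021, adjusted p = 0.798) or with the deposited values (-0.14, adjusted p = 0.0502). PXDDE against DDE gave 0.087 (95% interval -0.033 to 0.21, adjusted p = 0.22), and was called at 0.14 without DDE replicate 1, at 0.12 with array weights and at 0.23 to 0.37 under those scalings. The other probe lies next to it (chr2:26448577-26448603, minus strand, a stretch shorter than the probe). It was not called in any comparison, with -0.12 in DDE against control, 0.19 in PXDDE against DDE and 0.066 in PXDDE against control, though it was called in PXDDE against DDE under each of the 5 other scalings (0.23 to 0.33) and in DDE against control without control replicate 1 (-0.22). With the main scaling no Agpat2 change was called at both probes.

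The 2 lipins, the phosphatases that turn phosphatidic acid into diacylglycerol, went different ways. Lpin1, which also acts as a nuclear coactivator in fasting mouse liver, was lower in PXDDE than in both other groups. Its brightest probe (chr12:16543023-16543082, minus strand) read 2.22, 2.17, 2.20 and 2.17 on the PXDDE arrays, 2.86, 2.93, 2.95 and 2.96 on the DDE arrays and 2.96, 2.92, 2.94 and 3.03 on the control arrays. The PXDDE arrays were all below the others, which overlapped. The level was 1.66-fold lower in PXDDE than in DDE, -0.73 (SE 0.042, adjusted p = 1.76e-07), and 1.71-fold lower in PXDDE than in control, -0.77 (SE 0.042, adjusted p = 3.38e-08). DDE against control gave -0.042 (95% interval -0.13 to 0.050, adjusted p = 0.437), and it turned to 0.19 and was called higher under median centring, while the mean of the gene's tested probes was called lower (-0.19, adjusted p = 0.00947). The neighbouring probe (chr12:16543695-16543754, minus strand) gave -0.73 (SE 0.054, adjusted p = 1.24e-06) in PXDDE against DDE and -0.75 (SE 0.054, adjusted p = 2.82e-07) in PXDDE against control. Within slides the brightest probe fell by 0.68 to 0.74 in PXDDE against DDE. Over the 5 other scalings its change was -0.72 to -0.59 in PXDDE against DDE and -0.83 to -0.40 in PXDDE against control. The summed level of 10 skeletal muscle markers was lowest in PXDDE as well (6.90 to 6.98 in PXDDE, 7.33 to 7.45 in DDE and 8.73 to 8.77 in control). The summed levels of the adipocyte, Kupffer cell and enterocyte markers, given below, were also lowest in PXDDE. The part of these tissues in the result was not tested.

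Of the other Lpin1 probes, those in the 5′ part of the gene were dim and gave a different result for p,p'-DDE. The probe for a cDNA within the gene (chr12:16571310-16571369, minus strand) read -2.29, -2.24, -2.07 and -2.35 on the PXDDE arrays, -1.48, -1.95, -1.71 and -1.89 on the DDE arrays and -1.41, -1.37, -1.54 and -1.52 on the control arrays, and the one printed whole above (chr12:16587593-16587652, minus strand) read -4.04, -4.22, -3.99 and -3.95 on the PXDDE arrays, -3.11, -3.75, -3.64 and -3.51 on the DDE arrays and -3.15, -3.09, -2.99 and -3.22 on the control arrays. In both, the PXDDE arrays were lowest without overlap and the DDE and control arrays overlapped. They were called lower in DDE against control, at -0.30 (SE 0.099, adjusted p = 0.0281) and -0.39 (SE 0.12, adjusted p = 0.0202), where the 2 bright probes were not. These calls were lost under each of the 5 other scalings except normexp alone, at -0.19 to -0.068 and -0.23 to -0.11. They were also lost with single arrays left out, the first without control replicate 1 or 2 or DDE replicate 2 or 4 (-0.28 to -0.23), the second without control replicate 3 or DDE replicate 2 or 3 (-0.35 to -0.31). The second of them lies in a range of levels that moved down over the whole array: the 8653 tested probes with a mean level below -2 had a median change of -0.15 in DDE against control, -0.083 in PXDDE against DDE and -0.22 in PXDDE against control. The first, at a mean level between -2 and 2, lies among 11536 probes whose medians were 0.028, 0.013 and 0.041 in the same comparisons. The part of these shifts in the values of single probes was not tested.

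Lpin2, a lipin abundant in liver, was higher in both p,p'-DDE groups than in control at the 2 probes nearest its 3′ end. The brightest (chr17:71598998-71599057, plus strand) read 5.44, 5.23, 5.38 and 5.38 on the PXDDE arrays, 5.39, 5.51, 5.44 and 5.45 on the DDE arrays and 5.09, 5.13, 5.09 and 5.03 on the control arrays. All arrays of both p,p'-DDE groups were above all control arrays. DDE was 1.29-fold above control, 0.37 (SE 0.053, adjusted p = 0.000196), and PXDDE 1.21-fold above control, 0.28 (SE 0.053, adjusted p = 0.000642), while PXDDE against DDE gave -0.092 (95% interval -0.21 to 0.024, adjusted p = 0.177) and turned to 0.051 to 0.16 under quantile normalisation, background correction with quantile normalisation, median centring and the deposited values. Of these it was called higher under background correction with quantile normalisation (0.15, adjusted p = 0.0384), whereas it was called lower with array weights (-0.13, adjusted p = 0.048) and as the mean of the gene's tested probes (-0.22, adjusted p = 0.00739). The probe across a gap (chr17:71595823-71596189, plus strand) read 1.94, 1.90, 2.10 and 1.74 on the PXDDE arrays, 1.68, 1.95, 1.92 and 1.97 on the DDE arrays and 1.06, 1.34, 1.51 and 1.60 on the control arrays, and was also called, at 0.50 (SE 0.12, adjusted p = 0.00506) in DDE against control and 0.55 (SE 0.12, adjusted p = 0.00159) in PXDDE against control.

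Over the 5 other scalings the brightest probe gave 0.28 to 0.60 in DDE against control and 0.33 to 0.65 in PXDDE against control. A coding probe further upstream (chr17:71580723-71580782, plus strand) scattered more, from 2.56 to 3.18 on the PXDDE arrays, 2.83 to 3.27 on the DDE arrays and 2.39 to 3.09 on the control arrays, and was not called in any comparison (0.35 in DDE against control, adjusted p = 0.103), but without control replicate 4 it was called at 0.49 in DDE against control and 0.38 in PXDDE against control. The remaining 2 tested Lpin2 probes went down. They were designed to separate Ensembl transcripts, and both are dim. The first (chr17:71581567-71581626, plus strand) read -2.47, -2.62, -2.69 and -2.57 on the PXDDE arrays, -2.15, -2.09, -2.21 and -2.30 on the DDE arrays and -1.74, -1.83, -1.85 and -2.15 on the control arrays. The other (chr17:71571729-71571788, plus strand) read -4.73, -4.24, -4.37 and -4.37 on the PXDDE arrays, -3.94, -3.69, -4.07 and -3.87 on the DDE arrays and -3.31, -3.43, -3.80 and -3.22 on the control arrays. In each, PXDDE was lowest without overlap. The changes were -0.30 (SE 0.087, adjusted p = 0.0158) and -0.46 (SE 0.14, adjusted p = 0.0183) in DDE against control, -0.40 (SE 0.087, adjusted p = 0.0032) and -0.53 (SE 0.14, adjusted p = 0.00854) in PXDDE against DDE, and -0.69 (SE 0.087, adjusted p = 2.44e-05) and -0.99 (SE 0.14, adjusted p = 5.84e-05) in PXDDE against control. The calls in DDE against control were lost under 4 of the 5 other scalings, at -0.17 to -0.064 and -0.33 to -0.087, and the second also without control replicate 1 or 4 or DDE replicate 3 (-0.41 to -0.38). In PXDDE against DDE the second probe lost its call under background correction with quantile normalisation (-0.13, adjusted p = 0.102). It also lost that call with the deposited values (-0.33, adjusted p = 0.297). Over the 5 other scalings PXDDE against control came to -0.54 to -0.32 and -0.66 to -0.22, and the probes lie in the level range below -2, whose median moved down. Averaging all tested Lpin2 probes gave 0.095 in DDE against control (adjusted p = 0.183) and -0.12 in PXDDE against control (adjusted p = 0.0677), so the rise of Lpin2 holds for its 2 probes nearest the 3′ end and not for the gene's probes as a whole.

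**Figure D3:**
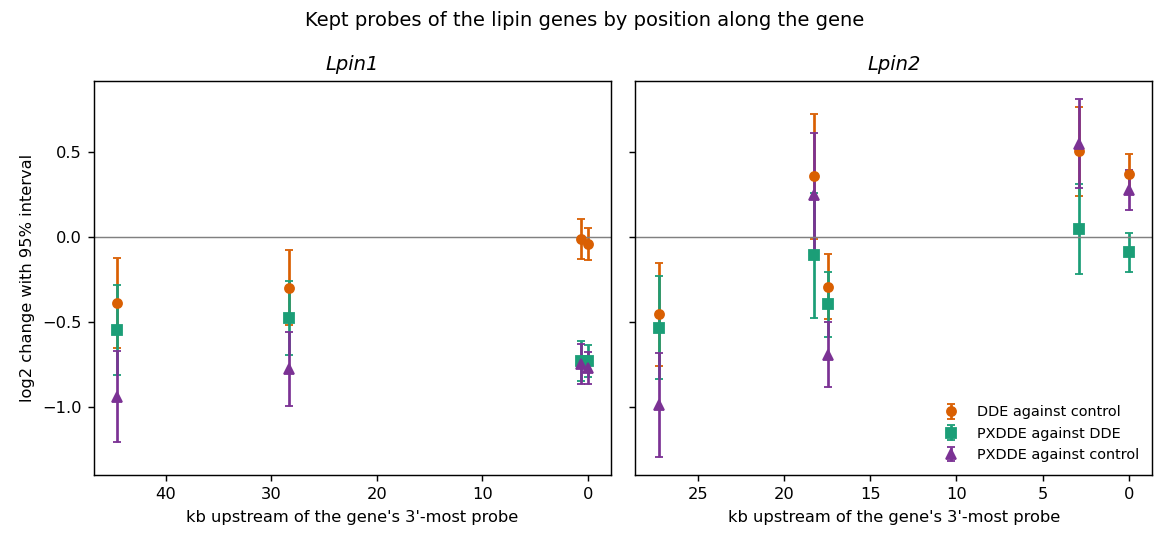
Change at each tested probe of Lpin1 (4 probes) and Lpin2 (5 probes), as the log2 difference of group means with its 95% interval, against the probe's distance in kb upstream of the gene's probe nearest the 3′ end. The Lpin1 probes are all below 0 in PXDDE against DDE and in PXDDE against control. In DDE against control the Lpin2 probes at 0 and 2.87 kb are above 0 and those at 17.4 and 27.3 kb are below it. The Lpin2 probe at 18.3 kb lies between the falling ones and is above 0 (0.35), but its 95% interval of -0.012 to 0.72 holds 0. It was not called, and whether direction follows position was not tested.

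Mogat1, the monoacylglycerol acyltransferase that makes diacylglycerol outside the glycerol phosphate route, had the largest change in DDE against control of the 9 genes, and PXDDE and DDE could not be told apart at its brightest probe. Its brightest probe (chr1:78534646-78534705, plus strand) read 3.22, 3.17, 3.09 and 3.19 on the PXDDE arrays, 3.18, 3.17, 3.21 and 3.16 on the DDE arrays and 1.86, 1.86, 1.81 and 1.87 on the control arrays. All 8 p,p'-DDE arrays were more than 1 log2 unit above every control array, and the PXDDE and DDE arrays overlapped. DDE was 2.51-fold above control, 1.33 (SE 0.041, adjusted p = 1.04e-09), and PXDDE 2.49-fold above control, 1.31 (SE 0.041, adjusted p = 3.93e-10). PXDDE against DDE gave -0.014, with a 95% interval of -0.10 to 0.077 and an adjusted p of 0.808. The coding probe printed above (chr1:78519298-78519357, plus strand) read -0.21, -0.13, -0.087 and -0.28 on the PXDDE arrays, -0.42, -0.37, -0.37 and -0.29 on the DDE arrays and -2.03, -2.20, -1.71 and -1.82 on the control arrays. It was 2.99-fold higher in DDE than in control, 1.58 (SE 0.094, adjusted p = 2.17e-07), and 3.39-fold higher in PXDDE than in control, 1.76 (SE 0.094, adjusted p = 2.89e-08). Its PXDDE arrays were all above its DDE arrays, but the difference of 0.18 was not called (adjusted p = 0.133). It was called higher under normexp background correction (0.17, adjusted p = 0.0407), under median centring (0.33, adjusted p = 0.0124) and in a fit of the 2 groups compared (0.18, adjusted p = 0.0351). Within slides the rise in DDE against control was 1.29 to 1.36 at the brightest probe and 1.34 to 1.83 at the coding one. The last Mogat1 probe, designed to a predicted non-coding transcript (chr1:78615821-78615880, plus strand), was not kept: it read -2.75 in DDE replicate 2 and -3.12 in control replicate 1 and below -6 on the 10 other arrays.

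Both acyltransferases of the last step were higher in PXDDE than in DDE, and Dgat1 was also called in DDE against control. Dgat1, the diacylglycerol acyltransferase found in many tissues, was measured by a single probe (chr15:76333128-76333274, minus strand), which read 1.26, 1.49, 1.52 and 1.55 on the PXDDE arrays, 1.15, 0.99, 0.98 and 0.95 on the DDE arrays and 0.66, 0.63, 0.56 and 0.70 on the control arrays. The 3 groups did not overlap, with PXDDE highest and control lowest. Dgat1 was 1.3-fold higher in DDE than in control, 0.38 (SE 0.070, adjusted p = 0.00106), 1.35-fold higher in PXDDE than in DDE, 0.44 (SE 0.070, adjusted p = 0.000427), and 1.76-fold higher in PXDDE than in control, 0.82 (SE 0.070, adjusted p = 1.11e-06). Within slides these changes were 0.29 to 0.43, 0.27 to 0.54 and 0.70 to 0.88. Over the 5 other scalings they were 0.31 to 0.61, 0.41 to 0.58 and 0.72 to 1.19. By its brightest probe and the main scaling it alone of the 9 genes was called in all 3 comparisons.

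Dgat2, an unrelated enzyme of the same reaction that uses newly made fatty acids in liver, was higher in PXDDE than in both other groups. Its single probe (chr7:106302215-106302274, minus strand) read 7.15, 7.17, 7.17 and 7.28 on the PXDDE arrays, 6.81, 6.77, 6.82 and 6.81 on the DDE arrays and 6.80, 6.75, 6.83 and 6.79 on the control arrays. The PXDDE arrays were above all others, and the DDE and control arrays overlapped. PXDDE was 1.31-fold above DDE, 0.39 (SE 0.042, adjusted p = 2.6e-05), and 1.32-fold above control, 0.40 (SE 0.042, adjusted p = 5.8e-06), with 0.35 to 0.47 and 0.32 to 0.42 within slides. DDE against control gave 0.013 (95% interval -0.080 to 0.11, adjusted p = 0.823). The size of these values moved with the scaling: PXDDE against control was 0.41 to 0.90 over the 5 others, and DDE against control was called at 0.17 to 0.24 under quantile normalisation, background correction with quantile normalisation, median centring and the deposited values.

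The same steps were then read from genes outside the 9, from lists drawn up for the pathway. Over all genes 49.2% were called in DDE against control, 48.5% in PXDDE against DDE and 70.3% in PXDDE against control. A count near these shares, in these lists or the marker lists below, does not set a list apart. Among 6 other genes of fatty acid uptake and activation, 1 was higher and 0 were lower in DDE against control, 2 and 1 in PXDDE against DDE, and 2 and 1 in PXDDE against control, with medians of -0.011, -0.0092 and 0.078. Of the genes called in these comparisons, 0 of 1, 1 of 3 and 1 of 3 were called in the same direction under each of the 5 other scalings. Acsl3, an acyl-CoA synthetase of endoplasmic reticulum and lipid droplets, was higher in PXDDE than in DDE by 0.51 (adjusted p = 0.00081), as Acsl5 was. Slc27a2, a very long-chain acyl-CoA synthetase, was lower, at -0.20 (adjusted p = 0.00142) in PXDDE against DDE, but stood at -0.16 to 0.087 over the 5 other scalings and changed sign under 2 of them. Acsl4 was not called, with -0.059, -0.069 and -0.13 in the 3 comparisons.

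Of 19 further genes of glycerolipid synthesis, 7 were higher and 4 lower in DDE against control, 9 higher and 5 lower in PXDDE against DDE, and 9 higher and 6 lower in PXDDE against control (medians 0.079, 0.12 and 0.055). Of the genes called in these comparisons, 7 of 11, 11 of 14 and 10 of 15 were called in the same direction under each of the 5 other scalings. The glycerol phosphate acyltransferases did not move as 1 group. Agpat9 (now Gpat3), an enzyme of the endoplasmic reticulum, was higher in DDE than in control by 0.83 (adjusted p = 4.32e-08) and lower in PXDDE than in DDE, at -0.34 (adjusted p = 5.26e-05), the opposite directions to the second Gpam probe. The brightest Gpam probe was not called in DDE against control (-0.17). Agpat6 (now Gpat4), the other endoplasmic reticulum form, was lower, at -0.51 (adjusted p = 2.07e-05) in DDE against control and at -0.68 (adjusted p = 6.17e-07) in PXDDE against control. Mogat2, the intestinal relative of Mogat1, was lower in DDE than in control, at -0.49 (adjusted p = 0.00165), where Mogat1 was higher, and higher in PXDDE than in DDE by 0.47 (adjusted p = 0.0021), and the first of these was -0.36 to -0.25 over the other scalings, with an adjusted p of up to 0.0561. Lpin3, the third lipin, was higher in PXDDE than in DDE by 0.30 (adjusted p = 0.00119), where Lpin1 was lower. Glycerol 3-phosphate comes from Gpd1, which was lower in DDE than in control, at -0.25 (adjusted p = 0.00328) but -0.24 to -0.021 and called under 1 of the 5 other scalings, from its relative Gpd1l, which was higher by 0.68 (adjusted p = 1.35e-05), and from glycerol kinase, Gyk, which was lower in PXDDE than in DDE, at -0.41 (adjusted p = 1.06e-05). Lclat1, an acyltransferase of lysophospholipid and cardiolipin, had the largest change of the list, 1.01 (adjusted p = 3.16e-08) in PXDDE against control.

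Diacylglycerol and phosphatidic acid also feed the phospholipids. Of 19 genes of these branches 18 had a tested probe (Cds1 had none), and 9 were higher and 2 lower in DDE against control, 5 higher and 3 lower in PXDDE against DDE, and 10 higher and 5 lower in PXDDE against control, with medians of 0.22, 0.062 and 0.32. Of the genes called in these comparisons, 9 of 11, 6 of 8 and 11 of 15 were called in the same direction under each of the 5 other scalings. Cds2, which draws phosphatidic acid towards phosphatidylinositol and cardiolipin, was higher by 0.40 (adjusted p = 1.23e-05) in DDE against control and by 0.33 (adjusted p = 4.4e-05) in PXDDE against DDE, and Cdipt, the phosphatidylinositol synthase, by 0.42 (adjusted p = 9.59e-05) and 0.22 (adjusted p = 0.00638). Pcyt1a, the regulated step of phosphatidylcholine synthesis, was higher by 0.28 (adjusted p = 0.00126) in DDE against control. Pemt, which makes phosphatidylcholine by methylation in liver, was lower, at -0.41 (adjusted p = 0.000352), and Crls1, the cardiolipin synthase, at -0.31 (adjusted p = 0.00132). Over the other scalings Crls1 was -0.37 to -0.076, called under 4 of 5. Chka, a choline kinase, was called in PXDDE against control alone, at -0.23 (adjusted p = 0.0236), but stood at -0.19 to 0.15 over the other scalings and was called under 1 of them.

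Among 20 regulators of the pathway, transcription factors and coregulators with the SREBP partners Scap, Insig1 and Insig2, 6 were higher and 5 lower in DDE against control, 9 higher and 5 lower in PXDDE against DDE, and 10 higher and 5 lower in PXDDE against control (medians 0.11, 0.092 and 0.24). Of the genes called in these comparisons, 6 of 11, 11 of 14 and 12 of 15 were called in the same direction under each of the 5 other scalings. Srebf1, which encodes SREBP-1, was lower in DDE than in control, at -0.41 (adjusted p = 1.45e-05) and higher in PXDDE than in DDE by 1.06 (adjusted p = 6.4e-09), the directions of the second Gpam probe. The part of Srebf1 in the Gpam values was not tested. The brightest Gpam probe was not called in DDE against control (-0.17) and was called higher in PXDDE against DDE (1.11). Scap, the escort of SREBP, gave -0.24 (adjusted p = 0.00404) and 0.54 (adjusted p = 1.44e-05) in those comparisons, and Insig2, which retains SREBP in the endoplasmic reticulum, 0.31 (adjusted p = 0.000739) and -0.59 (adjusted p = 6.27e-06). Insig1, the relative of Insig2, was higher in both, by 0.45 (adjusted p = 0.0051) and 0.38 (adjusted p = 0.0138), so the Insig genes moved in opposite directions in PXDDE against DDE. Mlxipl, which encodes the sugar-responsive factor ChREBP, was lower in DDE than in control, at -0.48 (adjusted p = 3.94e-05) and was 0.14 (adjusted p = 0.049) in PXDDE against DDE. Pparg, whose product is known to activate Mogat1 in fatty mouse liver, was higher in DDE than in control by 0.37 (adjusted p = 8.14e-05). Nr1i3, which encodes the xenobiotic receptor CAR, was lower, at -0.26 (adjusted p = 0.00134) in DDE against control and at -0.63 (adjusted p = 2.15e-06) in PXDDE against DDE. Under median centring the DDE against control changes of Scap and Nr1i3 were -0.0054 and -0.027 and were not called. Ppargc1a, the coactivator that drives Lpin1 in fasting mouse liver, was called lower at -0.36 in DDE against control, -0.39 in PXDDE against DDE and -0.74 (adjusted p = 0.000105) in PXDDE against control. The changes in DDE against control and PXDDE against DDE were each called under 4 of the 5 other scalings. In DDE against control the brightest Lpin1 probe was not called (-0.042), while its 2 dim probes were called lower (-0.30 and -0.39). The part of Ppargc1a in the Lpin1 values was not tested. Nr1h3, the oxysterol receptor LXR alpha, was lower in PXDDE than in DDE, at -0.30 (adjusted p = 0.000191) but called under 2 of the 5 other scalings (-0.27 to -0.089), and Nr1i2, which encodes PXR, was not called in any comparison.

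**Figure D4:**
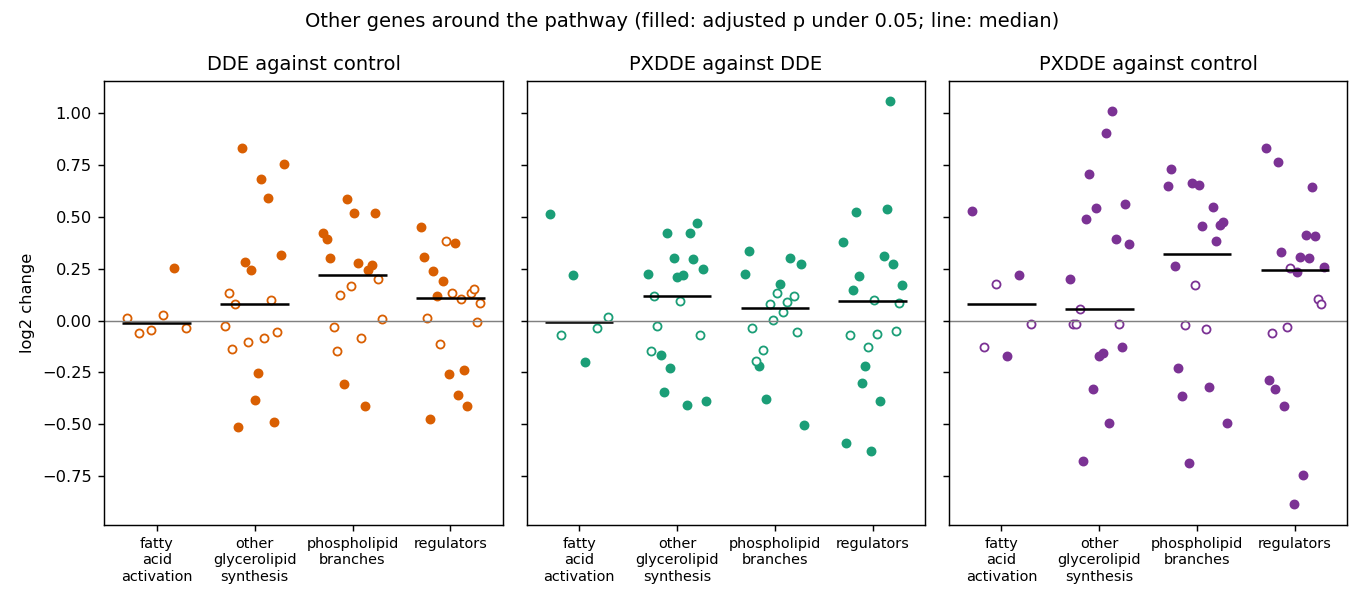
Change of the genes of the 4 pathway lists in each comparison, as the log2 difference of group means of the brightest probe, with filled points for an adjusted p under 0.05 and a line at the list's median. Each list holds called genes in both directions in PXDDE against DDE and in PXDDE against control, and the largest change in PXDDE against DDE is that of Srebf1 (1.06).

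Markers of tissues other than hepatocytes also differed between the groups. The hepatocyte markers themselves counted 0 higher and 1 lower of 7 tested in DDE against control. They counted 0 and 4 in PXDDE against DDE, and 1 and 5 in PXDDE against control. The 9 pancreatic acinar markers counted 9 higher and 0 lower in PXDDE against DDE and 0 higher and 7 lower in DDE against control. Of the 6 adrenal cortex markers, 2 were not above background on any DDE array. The 9 adipocyte markers stood at 5.61 to 5.82 on the PXDDE arrays, 6.09 to 6.20 on the DDE arrays and 6.34 to 6.44 on the control arrays, with 1 higher and 5 lower in DDE against control and 4 higher and 2 lower in PXDDE against DDE. The list did not move as 1: Adipoq, Retn, Cfd and Ucp1 were lower in DDE than in control and higher in PXDDE than in DDE, while Cidec, which encodes a lipid droplet protein that fatty liver also makes, gave 0.57 (adjusted p = 4.28e-05) in DDE against control and -0.73 (adjusted p = 6.63e-06) in PXDDE against DDE. The 10 skeletal muscle markers counted 0 higher and 8 lower in PXDDE against DDE. Kupffer cell markers stood at 4.71 to 4.91 on the PXDDE arrays, 5.14 to 5.27 on the DDE arrays and 5.46 to 5.63 on the control arrays, and the 4 of 8 enterocyte markers that were tested at 8.93 to 9.02 on the PXDDE arrays, 9.19 to 9.26 on the DDE arrays and 9.32 to 9.42 on the control arrays, while Cdx1, Cdx2, Lct and Sis had no tested probe. The part of these tissues in the changes of the 9 genes was not tested.

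**Figure D5:**
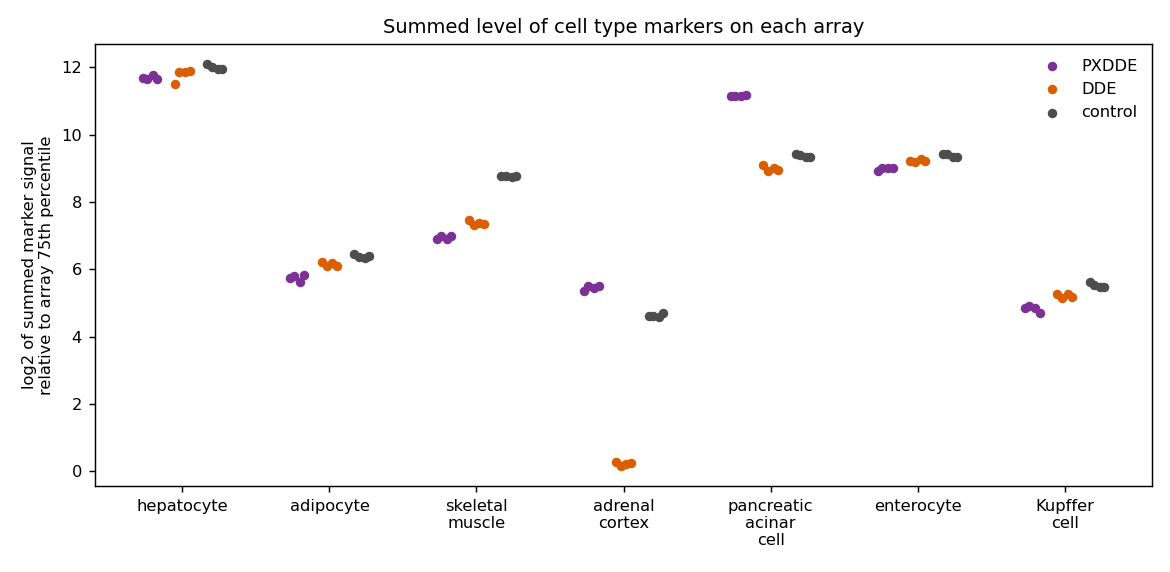
Summed level of each marker list on each array, as log2 of the summed signal relative to the array's 75th percentile, with 1 point per array for PXDDE, DDE and control. The adrenal cortex list is at 0.16 to 0.26 on the DDE arrays and above 4 on all others, and the acinar list is above 11 on the PXDDE arrays and below 10 on all others.

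For each gene the 3 most alike of 12757 genes were named, by Pearson's r over the 12 arrays. The arrays fall into 3 groups, so these values mostly compare group means and are given as a description. Mogat1 was closest to Cyp2b9 (r = 0.999), Cyp2b10 (0.999) and Cyp2c50 (0.998), P450 genes that activators of CAR induce in mouse liver, of which Cyp2b10 had mean levels of 8.93 in PXDDE, 8.91 in DDE and 2.55 in control. Gpam was closest to Cpb1 (0.991) and Reg1 (0.990), both products of the exocrine pancreas, and to Reck (0.989). Cpb1 had mean levels of 2.96 in PXDDE, 0.59 in DDE and 0.92 in control. Dgat2 was closest to the desaturase Scd2 (0.985), the trypsinogen gene Prss2 (0.984) and Rdh11 (0.982). Lpin1 was closest to Vmn1r65 (0.994) and to the inflammation genes S100a8 (0.992) and Saa1 (0.992), and Saa1 had mean levels of 7.06 in PXDDE, 9.81 in DDE and 9.85 in control. Acsl1 was closest to Raet1e (0.989), Tnfrsf12a (0.987) and Ubd (0.985), all highest in DDE.

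Agpat2 was closest to Gpd1 (0.956), the glycerol 3-phosphate dehydrogenase of the same pathway, Aldoa (0.952) and Micall2 (0.942). Lpin2 was closest to Fgd4 (0.976), Zfand2a (0.974) and Ugt2b34 (0.967), the last a glucuronosyltransferase with mean levels of -1.08 in PXDDE, -0.81 in DDE and -1.97 in control. Dgat1 was closest to Plod3 (0.995), Tmem214 (0.994) and Pex6 (0.994), and Acsl5 to Fuk (0.988), Shmt1 (0.988) and Gls2 (0.987).

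Counted over the 21 tested probes rather than the 9 genes, 7 were higher and 6 lower in DDE against control, and 5 and 8 in PXDDE against DDE. In PXDDE against control 10 were higher and 7 lower. Of all 27098 probes, 47.5% were called in DDE against control (23% higher and 24.5% lower), 45.7% in PXDDE against DDE (18.6% and 27.1%) and 68.6% in PXDDE against control (31.3% and 37.2%). Where the arrays of 2 groups do not overlap, the sign within slides is fixed, so within-slide signs could differ in the called changes with overlap alone, which were DDE against control at the 2 dim Lpin1 and the 2 dim Lpin2 probes. Within slides these changes were -0.47 to -0.34 and -0.76 to -0.36 at the Lpin1 probes and -0.56 to -0.24 and -0.64 to 0.10 at the Lpin2 probes, and the last was -0.40 (adjusted p = 0.0527) with the slide as a block. The 4 probes that were not kept belonged to Acsl1, Acsl5, Lpin2 and Mogat1, 1 to each, and none was assigned a change.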

How the data were processed

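Total RNA of 12 liver samples was labelled with Cy3 and hybridised to one-colour Agilent arrays, per the labels' protocols. The scanner files deposited by the authors give an intensity per spot. Background subtraction and detrending had been done, per the file headers, by Agilent Feature Extraction 11.5.1.1, which the submitters' processing notes also name, beside RMA and limma. A value table deposited by the authors is on a log2 scale, found by setting each column against its array's log2 processed signal (r = 0.9949 to 0.9964), with column medians of 5.3243 to 5.3479. How it was centred and otherwise made is not given in the sources used here, and it served as an alternative.

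Each processed signal was divided by its array's 75th percentile over non-control spots, and log2 was taken. The 3671 control spots and 102 to 177 outlier spots per array were left out, and spots of a probe were averaged. A probe was kept if every array of some group read it well above background. limma 3.58.1 (R 4.3.3) was fitted once over 12 arrays with group as the only term (9 residual degrees of freedom), with eBayes and Benjamini-Hochberg adjustment over the 27098 kept probes. A gene is shown by its brightest kept probe, all member probes are named, other genes are named from 4 pathway lists and 7 marker lists, and the 3 genes most like each member are named by Pearson's r. The members and lists were chosen with earlier results of these data known, and which listed genes the text describes was chosen after their values were seen. Of the pathway lists, Agpat6, Agpat9, Gyk, Ppap2a, Ppap2b, Ppap2c and Ept1 carry older names in the files.

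Coordinates are mm9 and, like gene names and probe sequences, come from the scanner files. A genome and annotation were not used here, so exon, intron or untranslated position is not given, and mismatches of the mouse probes with Mus spretus were not checked. The number of arrays limits the precision. Replicate numbers did not pair the arrays: deviations from group means of arrays with the same number correlated at -0.37 to 0.15 (median -0.015). Arrays on 1 slide correlated at -0.13 to 0.33 (median 0.18), and arrays on different slides had a median of -0.013. The fit was tested on simulated data: with DDE against control changes of 0.25, 0.5, 1 and 2 (log2) set in 50 probes each, 24%, 52%, 86% and 98% were called, with 7 calls among the unchanged rest of the 27098 probes. The simulated noise was independent between arrays and few probes were changed, whereas 47.5% of probes were called in the real DDE against control comparison. The simulation thus checks the code, and its rates are not those of the real comparisons. Other settings tried were normexp (offset 50), quantile normalisation, their combination (RMA-like), median centring, the deposited values, a stricter or no filter, 1 probe per gene, a gene's mean over probes, array weights, an eBayes trend, a fit of the 2 groups compared, blocks by replicate or by slide, keeping outlier spots, and leaving out arrays in turn.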

Additional observations from a re-analysis of the deposited data

Results flagged for a closer look

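Of 63 groups of 4 arrays (the 21 tested probes in 3 groups), 3 held an array far from the other 3 by Dixon's criterion, where chance gives about 1 in 20. The brightest Gpam probe stood at 5.07 in control replicate 4, below the 5.32 to 5.34 of the other control arrays, and without that array the DDE against control change was called lower (-0.23, adjusted p = 0.0231). The Dgat2 probe stood at 7.28 in PXDDE replicate 4, above the 7.15 to 7.17 of the other PXDDE arrays, and its calls were the same without it. The brightest Acsl5 probe stood at 5.09 in DDE replicate 1, above the 4.77 to 4.81 of the other DDE arrays, and no call changed without it.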

How the results depend on the processing

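Of 729 values of the brightest probes under up to 27 alternatives, 682 kept direction and side of the threshold, 22 became called, 4 lost the call and 21 changed sign, and of 900 values of the other probes 822, 21, 30 and 27 did so. Called probes over the array were 12867, 12384 and 18582 in DDE against control, PXDDE against DDE and PXDDE against control, and without the filter, with 56605 probes tested, 19540, 19966 and 32415. With the replicate number as a block they were 11844, 11313 and 18069, with 4 higher and 1 lower, 4 and 2, and 6 and 2 of the 9 genes. The share of called probes that are higher was 48.4%, 40.7% and 45.7%, against 81.7%, 67.3% and 73.7% under median centring, which moved the median of all probes to 0.22, 0.11 and 0.33. For PXDDE against DDE it was 52.3% under quantile normalisation, 53.1% under the RMA-like setting and 52.6% with the deposited values, for PXDDE against control 55.7% with the deposited values, and without the filter 28.7%, 23.0% and 25.7%. The mean of a gene's probes called 3 genes higher and 3 lower in DDE against control. Sign changes, for which the cause was not tested, are these by setting. Under median centring, DDE against control gave Gpam 0.064, the second Agpat2 probe 0.11, Lpin1 0.19, the second Lpin1 probe 0.22 and the dim Acsl5 probe 0.085, PXDDE against control gave Agpat2 0.21 and the dim Acsl5 probe 0.17 and PXDDE against DDE gave Lpin2 0.051, the upstream coding Lpin2 probe 0.034, Mogat1 0.13 and the dim Acsl5 probe 0.081. Under quantile normalisation, PXDDE against control gave Agpat2 0.22 and the dim Acsl5 probe 0.11, PXDDE against DDE gave Lpin2 0.16, Mogat1 0.010 and the dim Acsl5 probe 0.060 and DDE against control gave the dim Acsl5 probe 0.049. Under the RMA-like setting, PXDDE against control gave Agpat2 0.22 and the dim Acsl5 probe 0.049, PXDDE against DDE gave Lpin2 0.15, Mogat1 0.0021 and the dim Acsl5 probe 0.0080 and DDE against control gave the dim Acsl5 probe 0.041. With the deposited values, PXDDE against control gave Agpat2 0.23 and the dim Acsl5 probe 0.14, PXDDE against DDE gave Lpin2 0.11, the Lpin2 probe across a gap -0.023, Mogat1 0.018 and the dim Acsl5 probe 0.039 and DDE against control gave the dim Acsl5 probe 0.10. With array weights, DDE against control gave the second Lpin1 probe 0.015 and PXDDE against DDE gave the Lpin2 probe across a gap -0.0051. With the slide block, DDE against control gave the second Lpin1 probe 0.011 and Dgat2 -0.0032 and PXDDE against DDE gave the Lpin2 probe across a gap -0.017. With the mean of probes, PXDDE against control gave Lpin2 -0.12, PXDDE against DDE gave Mogat1 0.085 and DDE against control gave Acsl5 -0.018. Under normexp, PXDDE against DDE gave Mogat1 0.0084. With 1 array left out at a time, values whose sign changed ranged as follows: the second Agpat2 probe in PXDDE against control -0.032 to 0.13, the second Lpin1 probe in DDE against control -0.041 to 0.0076, the upstream coding Lpin2 probe in PXDDE against DDE -0.20 to 0.0083, the Lpin2 probe across a gap in PXDDE against DDE -0.022 to 0.11, Dgat2 in DDE against control -0.0014 to 0.026 and Mogat1 in PXDDE against DDE -0.031 to 0.010. The lowest signal of a probe well above background was -5.02 to -4.29 on the arrays, which limits the dim probes of Lpin1, Lpin2 and Acsl5.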

Other observations

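Probes that were not kept gave values without a test. The Acsl1 probe for a separate Ensembl transcript read -4.91, -4.46, -4.20 and -4.54 on the PXDDE arrays, -3.97, -4.65, -4.86 and -4.96 on the DDE arrays and -4.07, -3.98, -4.13 and -3.64 on the control arrays. The Lpin2 probe for another such transcript read -6.79, -5.17, -5.39 and -6.30 on the PXDDE arrays, -5.57, -6.84, -6.83 and -4.97 on the DDE arrays and -6.52, -6.78, -6.46 and -6.19 on the control arrays. The third Acsl5 probe, on the opposite strand, read -7.00, -6.53, -6.82 and -6.69 on the PXDDE arrays, -5.94, -6.62, -6.65 and -6.39 on the DDE arrays and -6.34, -6.57, -6.38 and -6.42 on the control arrays.

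Nr0b2, which encodes the bile acid responsive repressor SHP, was higher by 0.24 (adjusted p = 0.00366) in DDE against control and by 0.52 (adjusted p = 1.67e-05) in PXDDE against DDE. Nr1h4, which encodes the bile acid receptor FXR, gave 0.19 (adjusted p = 0.0088) and -0.22 (adjusted p = 0.00411) in those comparisons. The second was -0.17 to 0.055 over the other scalings, with 3 sign changes of 5. Among the genes around the lipins, Bscl2, which encodes seipin, was higher by 0.28 (adjusted p = 0.00201) in DDE against control and 0.42 (adjusted p = 0.000142) in PXDDE against DDE. The lipin phosphatase Ctdnep1 gave 0.24 (adjusted p = 0.00448) and 0.30 (adjusted p = 0.00131), while its partner Cnep1r1 gave -0.10 (adjusted p = 0.165) and -0.23 (adjusted p = 0.00675).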
